A study of Mus musculus with 34 samples.

Results

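Interferon signalling and response genes were followed through 3 mouse colorectal cancer cell lines treated with a BRAF inhibitor. The set held 9 genes given by name, Ifngr1, Stat2, Irf9, Irf1, Irf7, Gbp2, Oasl2, Usp18 and Xaf1, and all 9 were among the 14107 genes counted. RNA was sequenced from NaJa-D, NaJa-F and NaJa-G cells kept in 0.5 µM encorafenib, which blocks the mutant BRAF kinase, or in the solvent DMSO. Cells were taken after 1 day or 5 days, and the 5-day cultures received fresh agent at each change of medium. The 34 libraries formed 12 groups of line, treatment and day, with 3 libraries in 10 groups and 2 in those of NaJa-G DMSO day 5 and NaJa-F encorafenib day 5. All 12 groups, controls included, carried the alleles VillinCreERT2, BrafV600E/+, Trp53R172H and APCdel on a C57BL/6N background. CreERT2 under the Villin promoter is active in intestinal epithelium after 4-hydroxytamoxifen, and the alleles were recombined in colon organoids of 1 donor mouse before transplantation. Each line grew out of the peritoneal lavage of a different recipient, so a difference between lines is a difference between 3 isolates, and the labels do not say whether libraries of a group were separate cultures. The p-values therefore measure the spread between libraries, which may be technical.

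Interferons are secreted proteins that warn cells of infection. Type I interferons act through a receptor whose kinases phosphorylate STAT proteins, and STAT2 with IRF9 takes part in the factor ISGF3 on interferon-stimulated response elements of target genes. Interferon gamma acts through IFNGR1 and IFNGR2, and its signal reaches gamma-activated sites, one of whose best known targets is Irf1. IRF7 drives the genes of the type I interferons themselves, while GBP2, OASL2, USP18 and XAF1 are products of interferon-stimulated genes. In the gut epithelium these genes are known for defence against viruses and intracellular bacteria and for antigen presentation.

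The start regions of the genes were searched for the letters of these elements, since both classes of binding site sit in many interferon targets. RefSeq (GRCm38.p6) held entries for 8 of the 9 genes, 10 in all, and Usp18 had none. The 250 bases before each start were read on both strands. The letters GAAA, any 2 bases and GAAA again, a short form of the interferon-stimulated response element, occurred before Stat2 and Gbp2, in both cases on the reverse strand, and were found in 2.98% of 32851 RefSeq windows of this length. The letters TTC, any 3 bases and GAA, a short form of the gamma-activated site that reads the same on both strands, occurred before Irf1 and in 7.02% of all windows. Neither was found in the windows of Ifngr1, Irf9, Irf7, Oasl2, Xaf1 and the second start of Irf1, and no window held both. By the positions in GENCODE M21, both Irf9 windows and that of the second start of Irf1 lie inside the gene. The Irf7 window reaches into its gene. For Irf9 the bases ahead of the GENCODE start were thus not searched. The matches are shown in capitals, on the forward strand of GRCm38, with the whole window for Stat2 (chr10:128270248-128270497) and Irf1 (chr11:53769764-53770013). For Gbp2, 30 bases are given (chr3:142620594-142620623), because GENCODE M21 places the first exon there, ahead of the RefSeq start. A match describes letters only.
Stat2: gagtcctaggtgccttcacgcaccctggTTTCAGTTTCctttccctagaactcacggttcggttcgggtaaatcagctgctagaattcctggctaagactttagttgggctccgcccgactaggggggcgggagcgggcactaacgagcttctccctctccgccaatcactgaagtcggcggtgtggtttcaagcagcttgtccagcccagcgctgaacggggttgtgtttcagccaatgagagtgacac
Irf1: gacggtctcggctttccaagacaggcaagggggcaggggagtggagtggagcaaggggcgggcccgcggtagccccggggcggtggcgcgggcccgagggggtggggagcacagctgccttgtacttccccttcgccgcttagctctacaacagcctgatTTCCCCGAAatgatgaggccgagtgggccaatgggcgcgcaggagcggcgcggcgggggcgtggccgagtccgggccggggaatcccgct
Gbp2: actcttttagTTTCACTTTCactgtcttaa

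Total counts were 46007050 to 80121299 per library, and the values below are CPM, the count scaled to library size with TMM factors. Epithelial identity was checked with 8 markers, all counted, whose summed level was 2610 to 9560 CPM, lowest in NaJa-G. The sum hides members that were low there. In DMSO at day 1, Epcam had a mean of 90.2 CPM in NaJa-G and 1111 CPM in NaJa-D. In the same order, Cldn7 had 39.0 and 475 CPM, Vil1 0.548 and 6.36 CPM, and Cdx2 8.68 and 22.7 CPM. Krt18 was not lower, with 1313 and 1141 CPM. The study describes NaJa-D cells as epithelial-like and NaJa-G cells as mesenchymal-like. Within groups, any 2 libraries differed by more than counting noise (chi-square per gene of 3.30 to 85.0, where counting noise alone gives about 1). None was thus the same library merely sequenced again. Libraries made anew from 1 culture could also differ so, and separate cultures are not shown by this. Replicate 3 of NaJa-D DMSO day 1 by its title names NaJa-G in its cell line field. Its log2 CPM correlated across genes at 0.995 or more, after rounding, with its own group and at 0.92 at most with NaJa-G DMSO day 1, and it was kept by its title. NaJa-D encorafenib day 1 replicate 3 stood apart from its group over all genes. Its chi-square per gene was 85.0 against replicate 1 and 66.6 against replicate 2, which gave 10.966 between them. As given below, this library was the lowest of its group for Stat2, Irf1, Irf7, Oasl2 and Xaf1. It was not the lowest for Ifngr1, Gbp2 or Usp18. Other groups also held a library further from the rest, such as NaJa-G DMSO day 1 replicate 1 (47.6 and 45.9, against 3.63).

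The 9 genes covered a wide range of levels. Per kilobase of exon, group means ran from 13.3 to 30.1 CPM for Ifngr1, the most abundant, and from 4.41 to 9.25 for Irf1. The levels of Stat2 (0.831 to 3.04 CPM per kilobase) and Irf9 (0.882 to 1.8) were lower. The other 5 genes fell below 0.1 CPM per kilobase in their lowest group and reached 3.14 for Usp18, 1.25 for Irf7, 1.08 for Gbp2, 0.437 for Oasl2 and 0.317 for Xaf1 in their highest. The ratio of the highest to the lowest of the 12 group means was 40.3 for Usp18, 37.5 for Gbp2, 18.9 for Xaf1, 15.1 for Irf7 and 10.3 for Oasl2. It was 3.66 for Stat2, 2.26 for Ifngr1, 2.1 for Irf1 and 2.04 for Irf9. The strongly varying genes were thus the induced genes and Irf7, and they were also the genes with the fewest reads, with minima of 2 counts for Gbp2, 3 for Xaf1, 6 for Irf7, 6 for Oasl2 and 13 for Usp18. In bulk RNA, fewer cells that express a gene and less RNA per cell cannot be told apart.

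**Figure D1:**
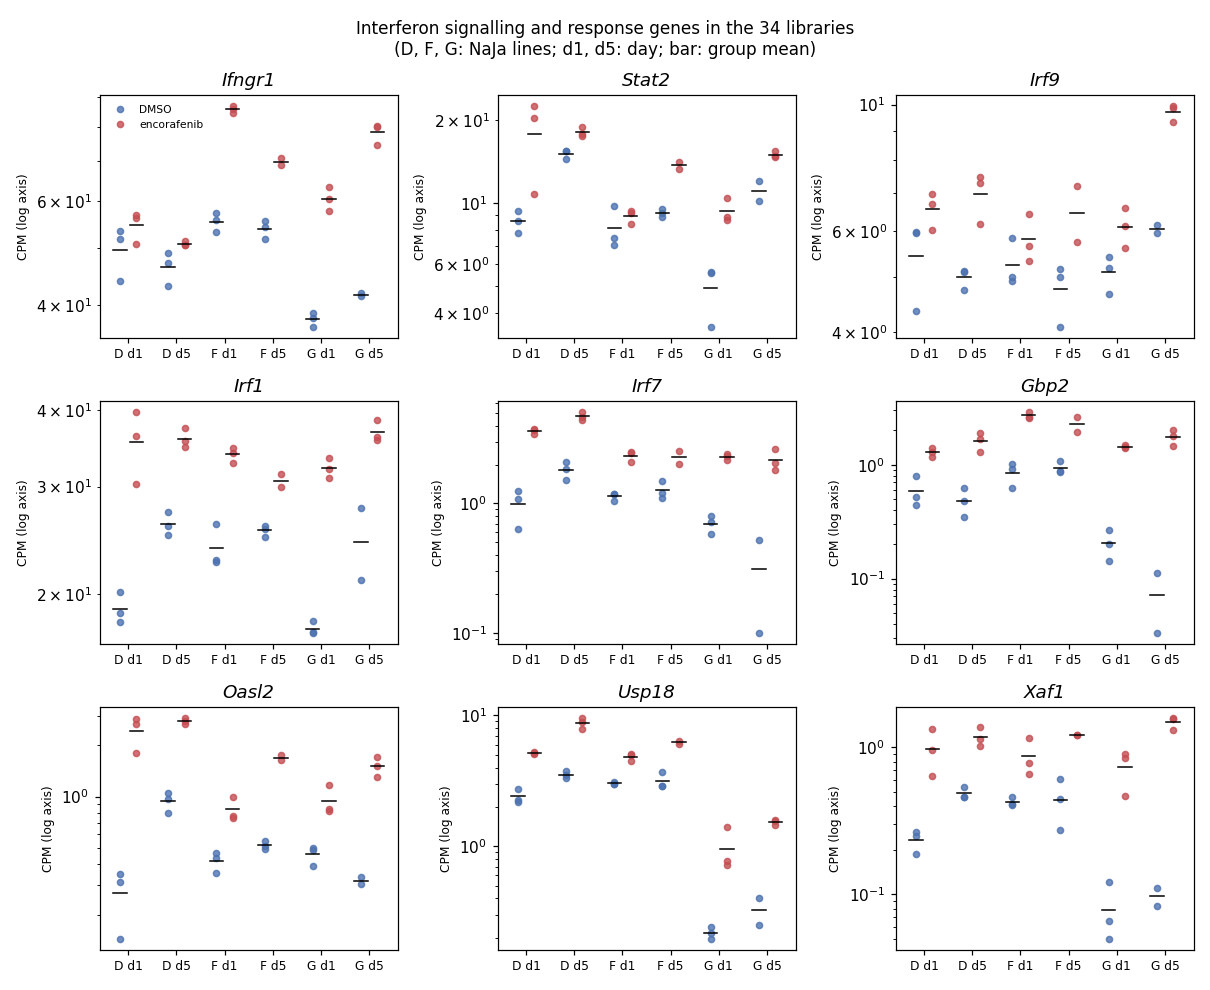
CPM (library-scaled counts, log axis, 1 panel and scale per gene) of the 9 genes in each of the 34 libraries, by line (D, F, G) and day (d1, d5), with DMSO in blue, encorafenib in red and the group mean as a black bar. Red points lie above blue points of the same line and day in 51 of the 54 combinations of gene, line and day, and NaJa-G starts lowest for Irf7, Gbp2, Usp18 and Xaf1.

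Encorafenib was compared with DMSO in each line and day to ask how the interferon genes respond to BRAF inhibition. In each comparison 6 to 8 of the 9 genes rose, and none was called lower. By limma on voom values, with p adjusted for all genes tested and a threshold of 0.01, 7 of the 9 were higher in NaJa-D at day 1, where 23.7% of all genes were called higher and 21.2% lower. Stat2, Irf1, Irf7, Gbp2, Oasl2, Usp18 and Xaf1 made up this count. At day 5 in NaJa-D the count was again 7 (all genes 18.3% higher, 14.7% lower), with Irf9 in and Stat2 out. In NaJa-F, 7 genes were higher at day 1 (17.5% and 12% of all genes), falling to 6 called at day 5 (9.7% and 8.5%). NaJa-G had 8 genes higher at day 1, all but Irf9 (35.3% and 28.7% of all genes), and 8 at day 5, all but Stat2 (28.5% and 24.7%). Irf7, Gbp2, Oasl2, Usp18 and Xaf1 were called higher in all 6 comparisons, as were 5.08% of all genes, and 43 of the 54 tests passed in all.

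The median log2 fold change of the 9 genes was 1.09 and 1.28 in NaJa-D at day 1 and day 5, for NaJa-F 0.68 and 0.85, and for NaJa-G 1.06 and 2.22. That of all genes lay between -0.017 and 0.044. Every encorafenib library exceeded every DMSO library for 8 of the 9 genes in NaJa-D at day 1, against 28.8% of all genes, and for all 9 at day 5 (29.8%). The count was 7 in NaJa-F at day 1 (30%) and 9 at day 5 (28%), and 9 in NaJa-G at both days (40% and 37.7%). The 3 exceptions were Ifngr1 in NaJa-D and Stat2 and Irf9 in NaJa-F, each at day 1.

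**Figure D2:**
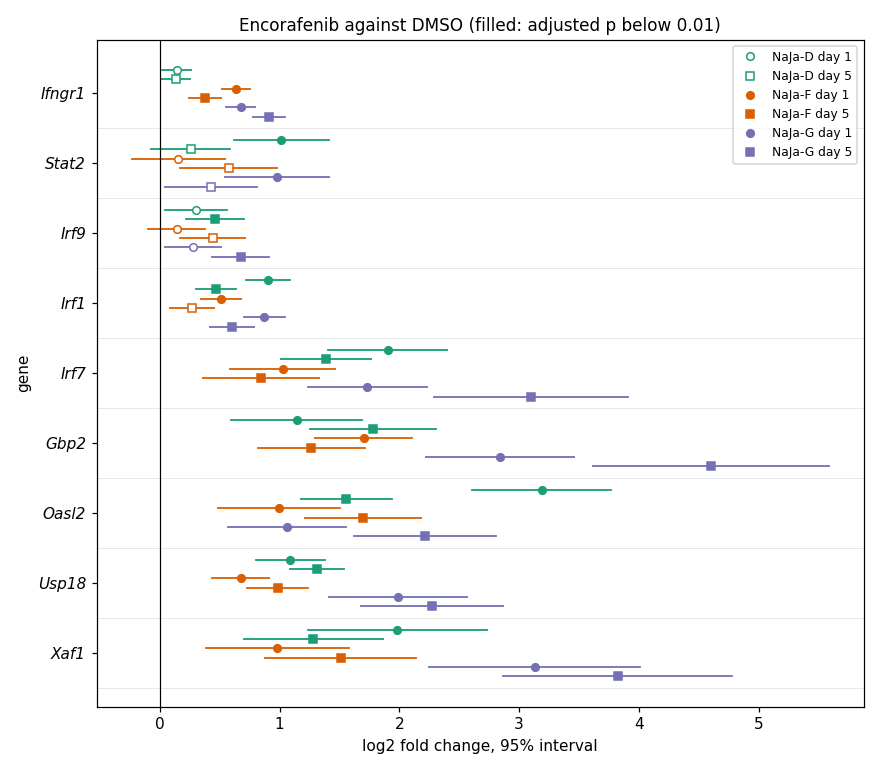
Log2 fold change of encorafenib against DMSO with its 95% interval (horizontal axis) for each of the 9 genes (vertical axis), by line (colour) and day (circle for day 1, square for day 5), with filled symbols where the adjusted p was below 0.01. All 54 estimates lie above 0, and the widest spread between lines is that of Gbp2, from 1.14 in NaJa-D at day 1 to 4.60 in NaJa-G at day 5.

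Ifngr1 (ENSMUSG00000020009, chromosome 10, 19591949 to 19610229, forward strand, GRCm38) encodes the ligand-binding chain of the interferon gamma receptor. In NaJa-D, Ifngr1 had 43.9, 51.8 and 53.3 CPM in DMSO and 50.6, 56.2 and 56.8 CPM in encorafenib at day 1, and 47.1, 49 and 43 CPM in DMSO and 50.4, 50.5 and 51.4 CPM in encorafenib at day 5. In NaJa-F, Ifngr1 had 57.3, 55.6 and 53.1 CPM in DMSO and 84.5, 85.8 and 86.8 CPM in encorafenib at day 1, and 54.1, 51.8 and 55.4 CPM in DMSO and 70.9 and 68.9 CPM in encorafenib at day 5. In NaJa-G, Ifngr1 had 38, 36.8 and 38.8 CPM in DMSO and 60.4, 57.8 and 63.3 CPM in encorafenib at day 1, and 41.9 and 41.4 CPM in DMSO and 74.7, 79.9 and 80.4 CPM in encorafenib at day 5. The encorafenib libraries of NaJa-F and NaJa-G were all above their DMSO libraries, whereas those of NaJa-D overlapped at day 1 and lay just above at day 5. On the log2 scale, the difference of Ifngr1 in NaJa-D was 0.14 ± 0.06 (SE) at day 1 and 0.13 ± 0.06 at day 5 (adjusted p = 0.0472 and 0.0692). For NaJa-F the log2 fold change of Ifngr1 was 0.63 ± 0.057 at day 1 and 0.38 ± 0.064 at day 5 (adjusted p = 4.95e-10 and 3.95e-05). Ifngr1 differed between treated and control NaJa-G cells by a log2 fold change of 0.67 ± 0.059 at day 1 and 0.91 ± 0.065 at day 5 (adjusted p = 3.37e-11 and 1.13e-12). The receptor transcript thus rose in NaJa-F and NaJa-G and missed the threshold in NaJa-D, where scaling by library size alone gave 0.22 at day 1 (adjusted p = 0.00126). NaJa-G held the lowest level of all groups in DMSO at day 1, 37.9 ± 1.03 CPM (SD, n = 3), and NaJa-F the highest in encorafenib at day 1, 85.7 ± 1.15 CPM (SD, n = 3). Of the 11 neighbouring pairs in the order of the 12 group means, 7 had libraries that did not overlap. The order comes from these same values, and no share over all genes was computed for this count or those like it below.

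Stat2 (ENSMUSG00000040033, chromosome 10, 128270559 to 128292849, forward strand) encodes the STAT subunit particular to the type I interferon factor ISGF3. In NaJa-D, Stat2 had 7.79, 8.59 and 9.34 CPM in DMSO and 22.4, 20.3 and 10.7 CPM in encorafenib at day 1, and 15.4, 15.4 and 14.4 CPM in DMSO and 17.8, 17.4 and 18.9 CPM in encorafenib at day 5. In NaJa-F, Stat2 had 7.44, 7.04 and 9.77 CPM in DMSO and 9.33, 9.2 and 8.4 CPM in encorafenib at day 1, and 9.17, 8.92 and 9.47 CPM in DMSO and 14.1 and 13.3 CPM in encorafenib at day 5. In NaJa-G, Stat2 had 3.56, 5.57 and 5.64 CPM in DMSO and 8.69, 10.5 and 8.86 CPM in encorafenib at day 1, and 10.1 and 12 CPM in DMSO and 14.6, 15.4 and 14.8 CPM in encorafenib at day 5. NaJa-D encorafenib day 1 replicate 3 was low within its group, and the group still lay above DMSO, while in NaJa-F at day 1 the libraries overlapped. For NaJa-D the log2 fold change of Stat2 was 1.01 ± 0.19 (SE) at day 1 and 0.26 ± 0.16 at day 5 (adjusted p = 6.78e-05 and 0.204). Stat2 differed between treated and control NaJa-F cells by a log2 fold change of 0.16 ± 0.19 at day 1 and 0.57 ± 0.20 at day 5 (adjusted p = 0.537 and 0.0302). As a log2 fold change, Stat2 in NaJa-G gave 0.98 ± 0.21 at day 1 and 0.43 ± 0.19 at day 5 (adjusted p = 0.000174 and 0.0473). Only the day 1 values of NaJa-D and NaJa-G passed, and leaving out the low NaJa-D library made the former 1.30 (adjusted p = 1.35e-09). Fitted to its own groups alone, it missed the threshold (adjusted p = 0.0213), and the day 5 values of NaJa-F and NaJa-G then passed (adjusted p = 0.00104 and 0.00731). DESeq2 also called the day 5 value of NaJa-F (adjusted p = 0.00862).

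Irf9 (ENSMUSG00000002325, chromosome 14, 55603571 to 55610030, forward strand) encodes the DNA-binding subunit of ISGF3. Its level ran from 4.09 to 9.94 CPM over the 34 libraries. NaJa-G encorafenib day 5 stood apart, with 9.3, 9.94 and 9.85 CPM against 5.95 and 6.17 CPM in DMSO. In NaJa-D at day 5 the DMSO libraries had 5.11, 4.73 and 5.12 CPM and the encorafenib libraries 7.47, 6.19 and 7.28 CPM. Both groups of encorafenib libraries lay above their controls. Irf9 differed between treated and control NaJa-D cells by a log2 fold change of 0.30 ± 0.12 (SE) at day 1 and 0.46 ± 0.12 at day 5 (adjusted p = 0.0403 and 0.00223). As a log2 fold change, Irf9 in NaJa-F gave 0.14 ± 0.11 at day 1 and 0.44 ± 0.13 at day 5 (adjusted p = 0.339 and 0.0123). The fitted log2 change of Irf9 in NaJa-G was 0.27 ± 0.11 at day 1 and 0.68 ± 0.12 at day 5 (adjusted p = 0.0333 and 1.1e-05). For NaJa-D at day 5 the call did not survive without DMSO replicate 2, encorafenib replicate 1 or encorafenib replicate 3, with 0.41 to 0.43 (adjusted p = 0.0105 to 0.0138). In NaJa-F at day 5 the value passed without encorafenib replicate 2 (0.59, adjusted p = 0.0062), with DESeq2 (adjusted p = 0.00385) and with RLE scaling (adjusted p = 0.00935). Exons of Irf9 overlap Rnf31 on the same strand, and the counting of shared reads was not stated. No encorafenib comparison called Rnf31, whose log2 fold changes were -0.12 to 0.05.

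Irf1 (ENSMUSG00000018899, chromosome 11, 53770014 to 53778374, forward strand) encodes an activator of class I antigen presentation and of interferon target genes. In NaJa-D, Irf1 had 18.6, 18 and 20.2 CPM in DMSO and 39.7, 36.4 and 30.3 CPM in encorafenib at day 1, and 25, 27.2 and 25.8 CPM in DMSO and 35.6, 34.8 and 37.4 CPM in encorafenib at day 5. In NaJa-F, Irf1 had 22.5, 22.7 and 26 CPM in DMSO and 32.8, 34.7 and 34 CPM in encorafenib at day 1, and 25.6, 24.8 and 25.9 CPM in DMSO and 29.9 and 31.4 CPM in encorafenib at day 5. In NaJa-G, Irf1 had 17.3, 18 and 17.3 CPM in DMSO and 31, 32.1 and 33.4 CPM in encorafenib at day 1, and 21 and 27.6 CPM in DMSO and 35.7, 38.5 and 36.1 CPM in encorafenib at day 5. The encorafenib libraries were above the DMSO libraries in every line and day. As a log2 fold change, Irf1 in NaJa-D gave 0.91 ± 0.089 (SE) at day 1 and 0.47 ± 0.081 at day 5 (adjusted p = 1.61e-09 and 2.8e-05). The fitted log2 change of Irf1 in NaJa-F was 0.51 ± 0.08 at day 1 and 0.27 ± 0.091 at day 5 (adjusted p = 7.55e-06 and 0.0266). On the log2 scale, the difference of Irf1 in NaJa-G was 0.87 ± 0.084 at day 1 and 0.60 ± 0.09 at day 5 (adjusted p = 2.46e-10 and 1.47e-06). All passed but NaJa-F at day 5, which passed when fitted to its own groups alone (adjusted p = 0.00915). Levels in encorafenib lay close together, 30.7 to 36.8 CPM as group means, whereas DMSO levels ran from 17.5 CPM in NaJa-G at day 1 to 26.0 CPM in NaJa-D at day 5. Of the 11 neighbouring pairs of groups, 2 had no overlap. Gm17334 overlaps Irf1 on the opposite strand and was not among the genes counted.

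Irf7 (ENSMUSG00000025498, chromosome 7, 141262706 to 141266481, reverse strand) encodes the activator of the type I interferon genes, itself an interferon target. In NaJa-D, Irf7 had 1.26, 1.08 and 0.631 CPM in DMSO and 3.73, 3.72 and 3.42 CPM in encorafenib at day 1, and 1.52, 2.1 and 1.84 CPM in DMSO and 5.08, 4.43 and 4.64 CPM in encorafenib at day 5. In NaJa-F, Irf7 had 1.18, 1.05 and 1.19 CPM in DMSO and 2.45, 2.49 and 2.09 CPM in encorafenib at day 1, and 1.21, 1.1 and 1.49 CPM in DMSO and 2.0 and 2.55 CPM in encorafenib at day 5. In NaJa-G, Irf7 had 0.72, 0.576 and 0.798 CPM in DMSO and 2.16, 2.34 and 2.41 CPM in encorafenib at day 1, and 0.10 and 0.527 CPM in DMSO and 1.82, 2.04 and 2.64 CPM in encorafenib at day 5. Encorafenib libraries were above DMSO libraries throughout, and the DMSO libraries of NaJa-G at day 5 were the lowest and the furthest apart, with 6 and 38 counts. The fitted log2 change of Irf7 in NaJa-D was 1.90 ± 0.24 (SE) at day 1 and 1.39 ± 0.18 at day 5 (adjusted p = 1.73e-07 and 3.98e-07). On the log2 scale, the difference of Irf7 in NaJa-F was 1.03 ± 0.21 at day 1 and 0.85 ± 0.24 at day 5 (adjusted p = 0.000304 and 0.00758). For NaJa-G the log2 fold change of Irf7 was 1.73 ± 0.24 at day 1 and 3.10 ± 0.39 at day 5 (adjusted p = 3.07e-07 and 9.72e-08). Irf7 thus rose in all 6 comparisons. The value of NaJa-G at day 5 was unsteady. In fits that left out 1 library it ran from 2.02, without DMSO replicate 1, up to 4.31. The call of NaJa-F at day 5 was lost without any of the DMSO libraries or encorafenib replicate 2 (0.65 to 0.95, adjusted p = 0.0109 to 0.118) with edgeR (adjusted p = 0.0148) and when fitted to its own groups alone (0.85, adjusted p = 0.0138). Phrf1 overlaps Irf7 on the opposite strand, and the use of strand in counting was not stated, so reads of the pair could be mixed. Phrf1 moved the other way, with log2 fold changes of -0.38 to -0.16, and was called lower in 5 of the 6 comparisons.

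Gbp2 (ENSMUSG00000028270, chromosome 3, 142620602 to 142638008, forward strand) encodes a guanylate-binding GTPase that acts against intracellular pathogens. In NaJa-D, Gbp2 had 0.523, 0.446 and 0.80 CPM in DMSO and 1.16, 1.28 and 1.41 CPM in encorafenib at day 1, and 0.344, 0.627 and 0.481 CPM in DMSO and 1.9, 1.67 and 1.28 CPM in encorafenib at day 5. In NaJa-F, Gbp2 had 0.909, 1.01 and 0.63 CPM in DMSO and 2.59, 2.63 and 2.9 CPM in encorafenib at day 1, and 1.07, 0.874 and 0.867 CPM in DMSO and 2.62 and 1.95 CPM in encorafenib at day 5. In NaJa-G, Gbp2 had 0.144, 0.201 and 0.266 CPM in DMSO and 1.39, 1.43 and 1.5 CPM in encorafenib at day 1, and 0.0334 and 0.111 CPM in DMSO and 1.46, 1.78 and 2.01 CPM in encorafenib at day 5. The treated libraries lay above the controls in all lines and days. In NaJa-G the DMSO libraries were near the limit of detection, with 11, 15 and 16 counts at day 1 and 2 and 8 counts at day 5, and the treated libraries reached the range of the other lines. On the log2 scale, the difference of Gbp2 in NaJa-D was 1.14 ± 0.27 (SE) at day 1 and 1.78 ± 0.26 at day 5 (adjusted p = 0.000658 and 1.78e-06). For NaJa-F the log2 fold change of Gbp2 was 1.70 ± 0.20 at day 1 and 1.26 ± 0.22 at day 5 (adjusted p = 5.14e-08 and 4.69e-05). Gbp2 differed between treated and control NaJa-G cells by a log2 fold change of 2.84 ± 0.30 at day 1 and 4.60 ± 0.48 at day 5 (adjusted p = 1.99e-09 and 2.57e-09). All 6 passed. The highest level was in NaJa-F encorafenib day 1, 2.71 ± 0.168 CPM (SD, n = 3), and the lowest in NaJa-G DMSO day 5, 0.0722 ± 0.0547 CPM (SD, n = 2). In the order of group means the 6 DMSO groups came first and the 6 encorafenib groups after them, and the highest DMSO group, NaJa-F day 5, did not overlap the lowest encorafenib group, NaJa-D day 1.

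Oasl2 (ENSMUSG00000029561, chromosome 5, 114896936 to 114912234, forward strand) encodes an oligoadenylate synthetase-like antiviral protein. In NaJa-D, Oasl2 had 0.314, 0.352 and 0.146 CPM in DMSO and 2.84, 2.69 and 1.8 CPM in encorafenib at day 1, and 0.966, 0.80 and 1.05 CPM in DMSO and 2.9, 2.79 and 2.66 CPM in encorafenib at day 5. In NaJa-F, Oasl2 had 0.463, 0.356 and 0.434 CPM in DMSO and 0.774, 1.0 and 0.749 CPM in encorafenib at day 1, and 0.509, 0.55 and 0.491 CPM in DMSO and 1.75 and 1.64 CPM in encorafenib at day 5. In NaJa-G, Oasl2 had 0.393, 0.482 and 0.499 CPM in DMSO and 0.817, 1.18 and 0.85 CPM in encorafenib at day 1, and 0.334 and 0.305 CPM in DMSO and 1.3, 1.51 and 1.72 CPM in encorafenib at day 5. The treated libraries were above the controls in each line and day, and NaJa-D stood out with the lowest DMSO library (6 counts, day 1) and the highest encorafenib levels. For NaJa-D the log2 fold change of Oasl2 was 3.19 ± 0.28 (SE) at day 1 and 1.56 ± 0.18 at day 5 (adjusted p = 2.21e-10 and 6.55e-08). Oasl2 differed between treated and control NaJa-F cells by a log2 fold change of 1.00 ± 0.25 at day 1 and 1.70 ± 0.24 at day 5 (adjusted p = 0.0019 and 2.22e-06). As a log2 fold change, Oasl2 in NaJa-G gave 1.06 ± 0.24 at day 1 and 2.22 ± 0.29 at day 5 (adjusted p = 0.000257 and 1.58e-07). All 6 passed. In NaJa-F at day 1 the call was lost without DMSO replicate 2 (0.89, adjusted p = 0.0145) or encorafenib replicate 2 (0.87, adjusted p = 0.0147). NaJa-D DMSO at day 5 already held 0.939 ± 0.128 CPM (SD, n = 3), a level its neighbours in the order, NaJa-F and NaJa-G encorafenib day 1, overlapped.

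Usp18 (ENSMUSG00000030107, chromosome 6, 121245906 to 121270917, forward strand) encodes the protease that removes the modifier ISG15 from proteins and that also restrains the type I interferon receptor. In NaJa-D, Usp18 had 2.76, 2.28 and 2.18 CPM in DMSO and 5.04, 5.26 and 5.15 CPM in encorafenib at day 1, and 3.34, 3.48 and 3.78 CPM in DMSO and 9.55, 8.9 and 7.86 CPM in encorafenib at day 5. In NaJa-F, Usp18 had 3.1, 2.97 and 3.01 CPM in DMSO and 5.03, 5.05 and 4.47 CPM in encorafenib at day 1, and 2.91, 3.72 and 2.9 CPM in DMSO and 6.44 and 6.07 CPM in encorafenib at day 5. In NaJa-G, Usp18 had 0.196, 0.241 and 0.216 CPM in DMSO and 0.769, 0.714 and 1.4 CPM in encorafenib at day 1, and 0.401 and 0.249 CPM in DMSO and 1.46, 1.56 and 1.59 CPM in encorafenib at day 5. Treated libraries exceeded controls in all 6 settings, and all NaJa-G libraries, treated ones included, were below every library of NaJa-D and NaJa-F. Usp18 differed between treated and control NaJa-D cells by a log2 fold change of 1.09 ± 0.14 (SE) at day 1 and 1.31 ± 0.11 at day 5 (adjusted p = 1.9e-07 and 9.05e-11). As a log2 fold change, Usp18 in NaJa-F gave 0.68 ± 0.12 at day 1 and 0.98 ± 0.12 at day 5 (adjusted p = 3e-05 and 4.58e-07). The fitted log2 change of Usp18 in NaJa-G was 1.99 ± 0.28 at day 1 and 2.27 ± 0.29 at day 5 (adjusted p = 3.59e-07 and 9.65e-08). All 6 passed, and no library left out and no other setting tried ended a call. Of the 9 genes, Usp18 had the most neighbouring pairs free of overlap, 8 of 11, without a share over all genes to set beside it. Gm44148, a noncoding gene, overlaps it on the opposite strand.

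Xaf1 (ENSMUSG00000040483, chromosome 11, 72301629 to 72313733, forward strand) encodes XIAP-associated factor, which favours cell death by opposing an inhibitor of caspases. In NaJa-D, Xaf1 had 0.251, 0.188 and 0.267 CPM in DMSO and 1.34, 0.959 and 0.639 CPM in encorafenib at day 1, and 0.458, 0.54 and 0.463 CPM in DMSO and 1.03, 1.38 and 1.14 CPM in encorafenib at day 5. In NaJa-F, Xaf1 had 0.412, 0.46 and 0.406 CPM in DMSO and 0.789, 1.16 and 0.663 CPM in encorafenib at day 1, and 0.446, 0.275 and 0.605 CPM in DMSO and 1.21 and 1.22 CPM in encorafenib at day 5. In NaJa-G, Xaf1 had 0.0654, 0.121 and 0.0499 CPM in DMSO and 0.465, 0.899 and 0.85 CPM in encorafenib at day 1, and 0.0836 and 0.111 CPM in DMSO and 1.58, 1.56 and 1.32 CPM in encorafenib at day 5. Encorafenib libraries were above DMSO libraries in each case. NaJa-G had the fewest reads in DMSO, 3 to 9 counts per library, and the highest level of all groups in encorafenib at day 5, 1.49 ± 0.148 CPM (SD, n = 3). As a log2 fold change, Xaf1 in NaJa-D gave 1.98 ± 0.36 (SE) at day 1 and 1.28 ± 0.28 at day 5 (adjusted p = 4.25e-05 and 0.000519). The fitted log2 change of Xaf1 in NaJa-F was 0.98 ± 0.29 at day 1 and 1.51 ± 0.31 at day 5 (adjusted p = 0.00787 and 0.000389). On the log2 scale, the difference of Xaf1 in NaJa-G was 3.13 ± 0.43 at day 1 and 3.82 ± 0.47 at day 5 (adjusted p = 2.28e-07 and 4.94e-08). All 6 passed. That of NaJa-F at day 1 was the least secure, since it was lost without any of its DMSO libraries or without encorafenib replicate 1 or 2 (0.75 to 1.04, adjusted p = 0.0128 to 0.0629), with scaling by library size alone (adjusted p = 0.0123) and when fitted to its own groups alone (adjusted p = 0.0137).

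Markers of other cell types that a lavage could hold were read beside these values. Of 10 leukocyte markers, Cd68 and Csf1r were counted, and their summed level was 3.64 to 6.66 CPM in DMSO and 5.78 to 10.2 CPM in encorafenib. Within each line and day, every treated library exceeded its controls in this sum. Of all genes, 28% to 40% did so by comparison, a share that also stands beside the sums that follow. Csf1r alone separated in each line and day. Cd68 overlapped at day 1 in NaJa-D (DMSO up to 6.43 CPM, encorafenib from 6.11 CPM) and in NaJa-G (5.34 and 5.06 CPM), and separated in the other settings. The other 8, Ptprc, Adgre1 and Lyz2 among them, were not analysed here. Of 8 markers of fibroblasts and mesothelium, Col1a1, Col1a2, Pdgfrb and Msln were counted, with a sum of 510 to 1513 CPM in DMSO and 1003 to 3517 CPM in encorafenib, again higher in every treated library of a line and day. Most of this sum was Msln, whose group means ran from 530 to 3148 CPM. Msln did not follow the other members between lines. In DMSO at day 1 it had 1414 CPM in NaJa-D, where Col1a1, Col1a2 and Pdgfrb had 1.07, 0.161 and 0.0514 CPM. In NaJa-G it had 664 CPM, and the other members 42.1, 15.8 and 1.68 CPM. Col1a1 had a higher mean in encorafenib in each line and day, from 1.07 to 2.19 CPM in NaJa-D at day 1 and from 11 to 71.1 CPM in NaJa-G at day 5. The mean of Col1a2 was not higher in NaJa-D (0.161 and 0.144 CPM at day 1, 0.148 and 0.135 CPM at day 5), nor was that of Pdgfrb in NaJa-F at day 1 (0.111 and 0.103 CPM). Of 4 endothelial markers Kdr alone was counted, at 0.164 to 1.36 CPM in DMSO and 0.205 to 0.89 CPM in encorafenib, without 1 direction over the lines and days. The other listed markers, Thy1, Lum, Pdpn and Wt1 of stroma and Pecam1, Cdh5 and Tek of endothelium, were not analysed here. The summed epithelial markers were also higher, at 2610 to 6750 CPM in DMSO and 3163 to 9560 CPM in encorafenib, with every treated library above its controls, but the 8 members differed. Cdx2 had a lower mean in encorafenib in NaJa-G, 8.68 against 3.93 CPM at day 1 and 8.93 against 1.29 CPM at day 5. Epcam was lower in NaJa-D at day 1 (1111 and 801 CPM) and Vil1 in NaJa-D at day 5 (13.5 and 3.18 CPM). The study reports, as a result, that host cells were lost from the lavage cultures over several passages. It judged this by the vanished PCR product of the wild-type Apc allele. Loss of the wild-type Trp53 allele at higher passages is taken there as further support. The part of other cells in the interferon result was not tested.

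Ground states were compared between lines in DMSO, averaging day 1 and day 5, to ask how the untreated lines differ. Each gene called between NaJa-G and another line was lower in NaJa-G. Against NaJa-D, 6 of the 9 genes were lower in NaJa-G and none higher, where 34.1% of all genes were called lower and 33.3% higher. Against NaJa-F, 6 were lower and none higher (29.2% and 25.2% of all genes). NaJa-F and NaJa-D differed for Ifngr1 and Gbp2, both higher in NaJa-F and none lower (32.6% higher and 29% lower of all genes). Any 2 of these comparisons have the libraries of 1 line in common.

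Usp18 differed most. In DMSO its libraries ran from 0.196 to 0.401 CPM in NaJa-G, from 2.18 to 3.78 CPM in NaJa-D and from 2.90 to 3.72 CPM in NaJa-F, so that NaJa-G did not overlap the other lines. The log2 fold change of Usp18 was -3.45 ± 0.19 (SE) for NaJa-G against NaJa-D and -3.53 ± 0.19 against NaJa-F (adjusted p = 1.15e-15 and 6.69e-16). Gbp2, Xaf1 and Irf7 followed. For Gbp2 the values were -2.12 ± 0.31 and -2.88 ± 0.29 (adjusted p = 5.92e-07 and 1.06e-09), and those of Xaf1 were -1.90 ± 0.35 and -2.21 ± 0.34 (adjusted p = 2.2e-05 and 1.58e-06). Irf7 was lower too, at -1.66 ± 0.25 and -1.52 ± 0.24 (adjusted p = 9.25e-07 and 3.45e-06), most of it at day 5. With day 1 alone the values of Irf7 were -0.49 and -0.73 and missed the threshold (adjusted p = 0.148 and 0.023), and without NaJa-G DMSO day 5 replicate 1 the value against NaJa-F was -0.99 (adjusted p = 0.00014).

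Ifngr1, the receptor chain, was lower in NaJa-G against both NaJa-D (-0.27 ± 0.045, adjusted p = 5.34e-06) and NaJa-F (-0.46 ± 0.044, adjusted p = 3.64e-10), and NaJa-F exceeded NaJa-D (0.19 ± 0.042, adjusted p = 0.000233). NaJa-F likewise had more Gbp2 than NaJa-D (0.76 ± 0.20, adjusted p = 0.00109). With day 1 alone, both calls of NaJa-F against NaJa-D were lost (adjusted p = 0.0207 for Ifngr1 and 0.108 for Gbp2), and with day 5 alone that of Ifngr1 in NaJa-G against NaJa-D (-0.15, adjusted p = 0.0481). NaJa-G had less Stat2 than NaJa-D (-0.64 ± 0.15, adjusted p = 0.000364), a call lost with day 5 alone (adjusted p = 0.0454). Against NaJa-D, Stat2 had -0.40 ± 0.14 in NaJa-F (adjusted p = 0.0123), which passed with edgeR (adjusted p = 0.00549), DESeq2 (adjusted p = 0.000875), RLE scaling (adjusted p = 0.00724) or without NaJa-F DMSO day 1 replicate 3 (-0.47, adjusted p = 0.00512).

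NaJa-G had less Irf1 than NaJa-F (-0.25 ± 0.063, adjusted p = 0.000972), and this was lost without NaJa-G DMSO day 5 replicate 1 (-0.16, adjusted p = 0.0269), with day 5 alone (adjusted p = 0.564) and with only the groups compared (adjusted p = 0.0187). For Irf1 in NaJa-G against NaJa-D, leaving out NaJa-G DMSO day 5 replicate 3 gave a call (-0.20, adjusted p = 0.00799). Irf9 was called in none of the 3, with -0.052 ± 0.09, 0.10 ± 0.092 and 0.15 ± 0.087 for NaJa-F against NaJa-D, NaJa-G against NaJa-D, and NaJa-G set against NaJa-F (adjusted p = 0.62, 0.326 and 0.135). Oasl2 was also called in none, but its order depended on the day. NaJa-G against NaJa-D gave 0.78 at day 1 (adjusted p = 0.0329) and -1.54 at day 5 (adjusted p = 7.28e-05), and NaJa-F against NaJa-D gave -0.86 at day 5 (adjusted p = 0.00333).

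**Figure D3:**
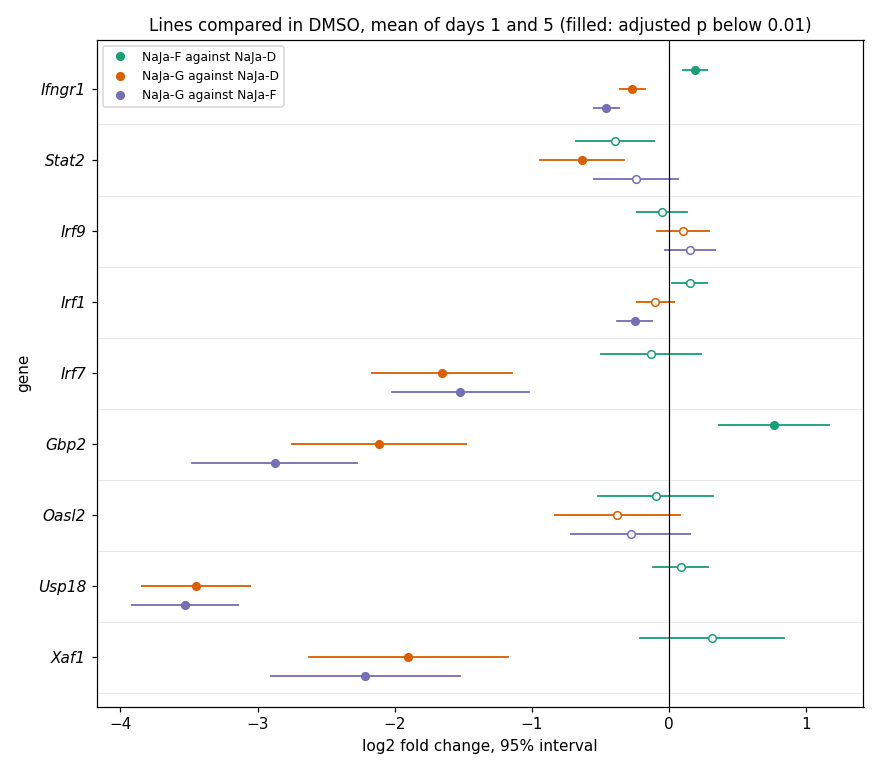
Log2 fold change between lines in DMSO with its 95% interval (horizontal axis) for each of the 9 genes (vertical axis), from the mean of day 1 and day 5, with filled symbols where the adjusted p was below 0.01. Usp18 lies at -3.45 and -3.53 for NaJa-G against the other lines, and Irf9 and Oasl2 have no filled symbol.

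Time in culture was compared in DMSO, day 5 against day 1, as the background of the day 5 treatment. In NaJa-D, 5 of the 9 genes were higher at day 5, Stat2, Irf1, Irf7, Oasl2 and Usp18, and none lower, where 29% of all genes were called in either direction. Oasl2 changed most, by 1.83 ± 0.31 (adjusted p = 2.48e-05), with all 3 libraries of day 5 above those of day 1. Stat2 rose by 0.82 ± 0.20 (adjusted p = 0.0015) and Irf7 by 0.88 ± 0.27 (adjusted p = 0.00892), and smaller rises were those of Usp18, 0.55 ± 0.15 (adjusted p = 0.00427), and Irf1, 0.46 ± 0.092 (adjusted p = 0.000219). The call of Irf7 in NaJa-D was lost without DMSO day 1 replicate 2 or 3 or DMSO day 5 replicate 2 or 3 (0.59 to 0.96), that of Usp18 without DMSO day 1 replicate 2 or 3 or DMSO day 5 replicate 3 (0.47 to 0.50), and that of Stat2 without DMSO day 1 replicate 1 (0.74).

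In NaJa-F none of the 9 genes was called over time by limma, edgeR or DESeq2, and 0 had an unadjusted p below 0.05, against 16.7% of all genes called. In NaJa-G, Stat2 rose by 1.22 ± 0.22 (adjusted p = 6.46e-05) and Irf1 by 0.47 ± 0.095 (adjusted p = 0.000212), while Irf7 fell, with a log2 fold change of -1.46 ± 0.42 (adjusted p = 0.00602), where 34.1% of all genes were called. The fall of Irf7 in NaJa-G rested on DMSO day 5 replicate 1. Without that library it was -0.38 (adjusted p = 0.444), without DMSO day 5 replicate 3 it was -2.67, and it also missed the threshold without DMSO day 1 replicate 1 or 3 (-1.42 and -1.37). The rise of Irf1 in NaJa-G was 0.26 without DMSO day 5 replicate 3 (adjusted p = 0.0472). Fitted to the groups of NaJa-G in DMSO alone, both missed the threshold, Irf7 at -1.45 (adjusted p = 0.122) and Irf1 at 0.49 (adjusted p = 0.0358), and edgeR and library-size scaling lost the call of Irf7 (adjusted p = 0.0101 and 0.0105). The call of Stat2 in NaJa-G held in each fit that left out a library.

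Whether the lines responded unequally was tested as the difference of their encorafenib responses, in log2 units. These tests share the libraries of a line. At day 1 the response of Oasl2 was smaller in NaJa-F than in NaJa-D, with a difference of -2.19 ± 0.38 (adjusted p = 0.00021), and NaJa-G fell short of NaJa-D as well, at -2.13 ± 0.37 (adjusted p = 2.94e-05). Fitted to its own groups alone, the former missed the threshold (-2.16, adjusted p = 0.0152). The response of Ifngr1 was larger in NaJa-F than in NaJa-D, by 0.49 ± 0.083 (adjusted p = 0.00017), and NaJa-G exceeded NaJa-D by 0.53 ± 0.084 (adjusted p = 7.65e-06). The response of Gbp2 in NaJa-G exceeded that of NaJa-D by 1.70 ± 0.40 (adjusted p = 0.00103). These made 2 of the 9 genes for NaJa-F against NaJa-D, where 8.79% of all genes were called, and 3 for NaJa-G against NaJa-D (36.4%). For NaJa-G against NaJa-F, Usp18 and Xaf1 responded more in NaJa-G, by 1.31 ± 0.30 (adjusted p = 0.000817) and 2.15 ± 0.52 (adjusted p = 0.00124), 2 of the 9 against 33.5% of all genes. Without NaJa-D encorafenib day 1 replicate 3, 4 genes in place of 2 were called between NaJa-F and NaJa-D.

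At day 5 NaJa-F and NaJa-D showed no called difference by limma, edgeR or DESeq2, with 1 gene, Ifngr1, at an unadjusted p below 0.05 and 8.85% of all genes called. NaJa-G exceeded both. Against NaJa-D, 4 genes responded more (21.9% of all genes called), namely Ifngr1 by 0.78 ± 0.088 (adjusted p = 6.35e-08), Irf7 by 1.71 ± 0.43 (adjusted p = 0.00302), Gbp2 by 2.82 ± 0.54 (adjusted p = 0.000181) and Xaf1 by 2.54 ± 0.55 (adjusted p = 0.000621). Against NaJa-F, 5 genes did (24.2%), with Ifngr1 at 0.53 ± 0.092 (adjusted p = 3.81e-05), Irf7 at 2.25 ± 0.46 (adjusted p = 0.000298), Gbp2 at 3.34 ± 0.53 (adjusted p = 1.14e-05), Usp18 at 1.29 ± 0.31 (adjusted p = 0.0019) and Xaf1 at 2.31 ± 0.56 (adjusted p = 0.00175). The larger responses of Gbp2, Usp18 and Xaf1 in NaJa-G started from lower DMSO levels, as given above, and levels in encorafenib at day 5 were not higher in NaJa-G than in both other lines for Irf7, Gbp2 or Usp18. For Xaf1 and Ifngr1 the mean in encorafenib at day 5 was highest in NaJa-G, with 1.49 CPM of Xaf1 against 1.18 CPM for NaJa-D and 1.21 CPM for NaJa-F, and 78.3 CPM of Ifngr1 against 50.7 and 69.9. Over the 9 tests of unequal response between lines or days, 6 of the 9 genes were called at least once, as were 63.4% of all genes.

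Both DMSO libraries of NaJa-G at day 5 bear on these values. Without NaJa-G DMSO day 5 replicate 1, the difference of Irf7 was 0.63 against NaJa-D (adjusted p = 0.187) and 1.17 against NaJa-F (adjusted p = 0.0204), and that of Xaf1 against NaJa-F was 2.14 (adjusted p = 0.0181), which left 3 genes called against NaJa-F. Without NaJa-G DMSO day 5 replicate 3, the differences of Irf7 were 2.92 and 3.47, and the calls against NaJa-F were lost for Usp18 (0.93, adjusted p = 0.0672) and Xaf1 (2.5, adjusted p = 0.0123). Fitted to their own groups alone, the differences of Irf7 also missed the threshold, at 1.75 against NaJa-D (adjusted p = 0.0209) and 2.24 against NaJa-F (adjusted p = 0.0132). The differences of Ifngr1 and Gbp2 stayed called in every fit that left out 1 library.

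The response at day 5 was then set against that at day 1 within each line. In NaJa-D, Oasl2 responded less at day 5, with a difference of -1.63 ± 0.34 (adjusted p = 0.00143), the 1 gene of the 9 called there (7.29% of all genes). Its encorafenib level was 2.45 ± 0.561 CPM (SD, n = 3) at day 1 and 2.78 ± 0.118 CPM (SD, n = 3) at day 5, and its DMSO level rose from 0.271 ± 0.11 CPM (SD, n = 3) to 0.939 ± 0.128 CPM (SD, n = 3). Without NaJa-D DMSO day 1 replicate 3 the difference was -1.26 (adjusted p = 0.0159) and no gene was called, and without NaJa-D encorafenib day 1 replicate 3 there were 3. Fitted to the groups of NaJa-D alone, the difference was -1.60 and missed the threshold (adjusted p = 0.0354). In NaJa-F no gene was called by limma, edgeR or DESeq2 (5.88% of all genes), with Ifngr1 alone at an unadjusted p below 0.05. In NaJa-G limma called none of the 9 (31.7% of all genes), although 6, Ifngr1, Irf9, Irf1, Irf7, Gbp2 and Oasl2, had an unadjusted p below 0.05 and edgeR called 2 and DESeq2 1. Up to 2 genes were called in NaJa-G when a library was left out. The libraries that changed this count were DMSO day 1 replicate 1, both DMSO day 5 libraries and encorafenib day 1 replicate 2, with 1 gene each, and encorafenib day 5 replicate 1, with 2.

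A wider list of 93 interferon genes was read beside the 9, of which 59 were counted. Counted were 27 of the 42 listed antiviral genes and 4 of the 12 listed gamma-inducible GTPases. Isg15, Ifit1, Ifit3, Mx1, Mx2, Rsad2, Oas1a, Oas2 and Oas3 were among the antiviral genes not counted. The GTPases not counted were Gbp3, Gbp4, Gbp5, Gbp6, Gbp7, Gbp8, Iigp1 and Tgtp1. The counts below therefore leave out these listed interferon targets. Under encorafenib 34 of the 59 were called higher and 8 lower in NaJa-D at day 1, and 25 and 8 at day 5. The counts were 28 and 7, then 24 and 7, in NaJa-F, and 36 and 12, then 31 and 12, in NaJa-G. Of all genes, 23.7% and 18.3% were called higher at day 1 and day 5 of NaJa-D. For NaJa-F these shares were 17.5% and 9.7%, for NaJa-G 35.3% and 28.5%. Called lower were 21.2% and 14.7%, 12% and 8.5%, and 28.7% and 24.7% of all genes, so the counts of lower genes in the list, such as 12 of 59 in NaJa-G at day 1, were near or under the share of all genes. Median log2 fold changes of the 59 were 0.42 and 0.21, 0.27 and 0.21, and 0.54 and 0.43, in the same order. The largest part, 27 counted antiviral genes, had 12 to 18 genes called higher and 0 to 6 lower. Among the lower ones were Ifitm2 in NaJa-D, and Ifitm1, Ifitm2 and Ifitm3 in NaJa-F and NaJa-G at day 5. Ifi204 was lower in NaJa-G at both days and in NaJa-F at day 5. At day 1 some of these genes were called higher, Ifitm1 in NaJa-F and NaJa-G, Ifitm3 in NaJa-G and Ifi204 in NaJa-D. Of 4 counted interferon gamma-inducible GTPases, 3 or 4 were higher in each comparison and none lower. These counts, and those of the smaller lists that follow, stand against 9.7% to 35.3% of all genes called higher and 8.5% to 28.7% called lower. Of the 9 listed ligands of the interferon family, from Ifnb1 to Ifng, none was analysed here.

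Signalling proteins showed both directions. Of 8 receptor chains and kinases, 1 to 5 were higher, among them Ifngr2, the partner chain of Ifngr1, in 5 of the 6 comparisons, while the kinase gene Jak2 was lower in 5 of 6. The 1 of 8 higher in NaJa-D at day 5 and the 2 of 8 in NaJa-G at day 5 were near the shares of all genes there, 18.3% and 28.5%. Of 6 counted STAT and IRF genes beside the members, Irf8 was lower in all 6 comparisons and Stat3 higher in 5. Of 9 sensors and adaptors, 4 or 5 were higher, and Tmem173, the adaptor of DNA sensing, was lower in 5 of 6. Of 5 brakes on interferon signalling, Socs3 and Ptpn2 were lower in 5 comparisons and Socs1 in 4, whereas Ptpn6 was higher in 2 and Pias1 in 1. Socs1, an inhibitor of JAK kinases, had -1.28 then -0.58 for NaJa-D, -1.14 then -0.10 for NaJa-F and -2.11 then -2.59 for NaJa-G. Stat3 and the receptors, sensors and brakes singled out here, like the Ifitm genes and Ifi204 above, were named after their values were seen.

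Called in 1 direction in all 6 comparisons were 17 of the 59, 16 higher and 1 lower. Of all genes, 8.15% were called in 1 direction in all 6, 5.08% higher and 3.07% lower. The 6 with the largest mean change were Irf8, Gbp9, Ifi27, Parp14, Ddx58 and Tlr3, and the 6 values of each follow in the order NaJa-D day 1 and day 5, NaJa-F day 1 and day 5, NaJa-G day 1 and day 5. Irf8, an interferon factor best known from blood cells, had log2 fold changes of -2.97, -2.68, -2.29, -1.71, -4.18 and -2.75. Its level went from 2.47 ± 0.468 CPM to 0.135 ± 0.0781 CPM in NaJa-G at day 1 (SD, n = 3). Gbp9, a guanylate-binding GTPase like Gbp2, had 2.02, 1.75, 1.54, 1.94, 1.87 and 3.81. The antiviral gene Ifi27 had 1.48, 1.41, 0.87, 1.15, 1.77 and 3.06, and Parp14, an ADP-ribosyltransferase, had 1.49, 1.26, 1.36, 1.38, 2.40 and 1.84. Ddx58, the RNA sensor RIG-I, had 1.41, 0.97, 0.99, 0.84, 2.25 and 2.42. For Tlr3, a sensor of double-stranded RNA, they were 0.88, 1.12, 1.05, 1.40, 1.38 and 2.94. Like Usp18, Tlr3 was least in NaJa-G, with 5.08 ± 0.49 CPM there and 56.1 ± 6.58 CPM in NaJa-D in DMSO at day 1 (SD, n = 3). The wider list went both ways between lines in DMSO. Against NaJa-D, 29 of the 59 were called lower in NaJa-G and 19 higher (34.1% and 33.3% of all genes). Against NaJa-F, 36 were lower and 12 higher (29.2% and 25.2%). Treated and control libraries did not overlap for any of the 6 named genes, which were chosen by their calls in these same comparisons. The separation is therefore no further evidence. Of all genes, 28% to 40% had every encorafenib library above every DMSO library, by comparison.

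**Figure D4:**
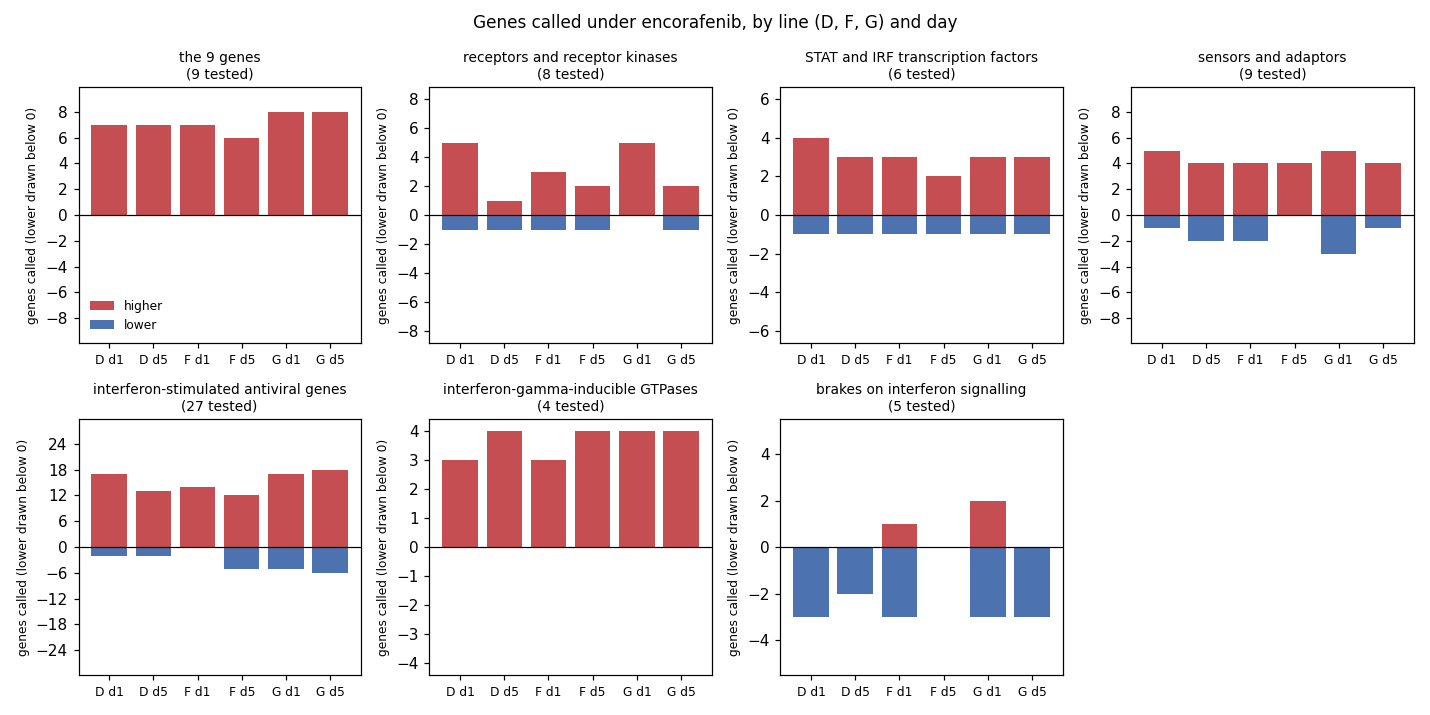
Number of genes called higher (red, above 0) and lower (blue, below 0) under encorafenib at an adjusted p below 0.01, by line (D, F, G) and day (d1, d5), for the 9 genes and for each of 6 lists of other interferon genes, with the number tested in the panel title. The 9 genes and the GTPases have no blue bar, and the brakes have more blue than red.

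Likeness of pattern was described by Pearson's r of mean log2 CPM over the 12 groups, which share lines, libraries and treatment, so no p is given. Among the 9 genes, Gbp2 and Xaf1 were most alike (0.912), followed by Irf1 and Xaf1 (0.888), and Irf9 and Usp18 least (0.109). Stat2 and Irf9, which act in 1 complex, had 0.574. Over all genes counted, the genes nearest to Usp18 were Pip4k2c (r = 0.993) and Tlr3 (r = 0.981), and those nearest to Irf1 were Uba7 (r = 0.968) and Ifi35 (r = 0.956). Stat2 was closest to Slc17a5 (r = 0.95) and Stat3 (r = 0.945). For Gbp2 they were Vgll3 (r = 0.994) and Gm6970 (r = 0.984), for Xaf1 BC021767 (r = 0.988) and Tnfrsf11a (r = 0.984), and for Irf7 Klhdc8a (r = 0.979) and 2810414N06Rik (r = 0.969). Oasl2 lay nearest to Coro6 (r = 0.945) and Akap6 (r = 0.943), Ifngr1 to Lhfp (r = 0.949) and Stbd1 (r = 0.943), and Irf9 to Fabp4 (r = 0.92) and Txndc16 (r = 0.908). Tlr3, Ifi35 and Stat3, among these, are interferon list genes.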

How the data were processed

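RNA-seq of 34 libraries was analysed. Per the labels and methods, reads were trimmed with Trimmomatic 0.39 and aligned with STAR 2.5.2b to GRCm38, and the authors deposited raw counts per gene, 14107 genes with summed counts of at least 360. The counter, the annotation and the use of strand are not given in the sources used here. Symbols and positions came from GENCODE M21 and matched 14064 identifiers.

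Counts were analysed in R 4.3.3. CPM used TMM factors (0.876 to 1.07), log2 CPM a prior count of 2, and CPM per kilobase the summed exon length. One limma 3.58.1 model with voom weights and 12 group means was fitted to all genes, and genes were called at a two-sided Benjamini-Hochberg adjusted p below 0.01. Alternatives were edgeR 4.0.16 quasi-likelihood, DESeq2 1.42.0, RLE and library-size scaling, a filter of mean log2 CPM of at least 1, the replicate block, only the groups compared, a threshold of 0.05, either day alone and each library left out. The procedure was tested on simulated data.

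The 9 genes, the lists and the tests were chosen with earlier results of these data known. Text names the 9 genes, up to 6 genes of the wider list called in 1 direction in all encorafenib comparisons with the largest mean change, and for each of the 9 the 2 genes of highest correlation over group means. Some items are not reported here. The matches to RefSeq promoters used the GRCm38.p6 table.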

Additional observations from a re-analysis of the deposited data

Results flagged for a closer look

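The responses of 6 of the 9 genes differed between lines or days by the test of the difference itself (limma, adjusted p below 0.01), with SEs and p given above. Of all genes, 63.4% were called in at least 1 of these tests, so the count is near the share of all genes. Most of the called differences had the larger response in NaJa-G. At day 5 Gbp2 exceeded the response of NaJa-D by 2.82 and that of NaJa-F by 3.34 log2 units, Xaf1 by 2.54 and 2.31, Irf7 by 1.71 and 2.25, and Ifngr1 by 0.78 and 0.53. The differences of Irf7 were lost when fitted to their own groups alone (adjusted p = 0.0209 and 0.0132). Usp18 exceeded that of NaJa-F by 1.31 at day 1 and 1.29 at day 5. At day 1 Gbp2 and Ifngr1 in NaJa-G exceeded NaJa-D by 1.70 and 0.53, and Xaf1 exceeded NaJa-F by 2.15. Ifngr1 in NaJa-F exceeded NaJa-D by 0.49 at day 1.

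Oasl2 went the other way. Its day 1 response was largest in NaJa-D, with differences of -2.19 for NaJa-F and -2.13 for NaJa-G, and within NaJa-D it was smaller at day 5, with a difference of -1.63. The first and the last of these were lost when fitted to their own groups alone (adjusted p = 0.0152 and 0.0354). The day 1 controls of NaJa-D held 15, 15 and 6 counts of Oasl2. No group had 4 or more libraries, so single libraries were not tested as outliers.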

How the results depend on the processing

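Of the encorafenib counts, none changed by more than 1.5 times except where the filter of a mean log2 CPM of at least 1 left 5 of the 9 genes (Ifngr1, Stat2, Irf9, Irf1 and Usp18) and 11234 genes in all. It gave 3 and 3 called genes in NaJa-D at day 1 and 5, for NaJa-F 3 then 2, and for NaJa-G 4 on both days. For the lines in DMSO it gave 1 between NaJa-F and NaJa-D and 3 between NaJa-G and each other line, for time in NaJa-D 2, and for the responses 1 for NaJa-F minus NaJa-D at day 1, 2 for NaJa-G minus NaJa-D and 2 for NaJa-G minus NaJa-F at day 5, and 0 for the days in NaJa-D.

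An adjusted p below 0.05 gave 4 genes for NaJa-F against NaJa-D in DMSO, 4 for the response of NaJa-F minus NaJa-D and 5 for NaJa-G minus NaJa-F at day 1, and 3 in NaJa-D and 5 in NaJa-G between days. DESeq2 gave 4 and 5 for those day 1 responses and 3 and 1 between days in NaJa-D and NaJa-G, where edgeR gave 2 and 2. Fitted to their own groups alone, 1 gene was called over time in NaJa-G, 1 and 4 for the responses of NaJa-F minus NaJa-D and NaJa-G minus NaJa-F at day 1, and 0 and 1 between days in NaJa-D and NaJa-F. For these the cause was not tested. NaJa-F against NaJa-D in DMSO gave 1 gene with day 1 alone and 4 with day 5 alone.

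Leaving out 1 library gave 3 to 5 genes over time in NaJa-D, 0 to 3 between days in NaJa-D, 0 to 2 between days in NaJa-G, 2 to 4 for NaJa-F minus NaJa-D at day 1 and 3 to 5 for NaJa-G minus NaJa-F at day 5. Under encorafenib the counts were 7 in every such fit at day 1 and 6 to 7 at day 5 in NaJa-D, 5 to 7 and 5 to 6 in NaJa-F, and 8 throughout in NaJa-G. Where 1 library remained in a group, it was assumed to vary like the others.

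No value under encorafenib and no called value turned its sign. Among values that were not called, it turned with library size only to 0.082 for Ifngr1 (time in NaJa-D), 0.038 for Ifngr1 (time in NaJa-F), 0.017 for Irf1 (NaJa-G over NaJa-D in DMSO), 0.079 for Irf9 (time in NaJa-D), 0.068 for Irf9 (NaJa-F over NaJa-D in DMSO), 0.024 for Oasl2 (NaJa-F over NaJa-D in DMSO) and 0.062 for Xaf1 (time in NaJa-F). It turned with DESeq2 to 0.0090 for Ifngr1 (response between days in NaJa-D), 0.0097 for Irf9 (response of NaJa-G minus NaJa-D, day 1) and 0.043 for Xaf1 (time in NaJa-F). It turned with only the groups compared to 0.017 for Ifngr1 (response between days in NaJa-D), 0.0046 for Irf9 (response of NaJa-F minus NaJa-D, day 5) and 0.011 for Xaf1 (time in NaJa-F). It turned with RLE scaling to 0.0082 for Ifngr1 (response between days in NaJa-D). It turned with day 5 alone to -0.030 for Irf1 (NaJa-F over NaJa-D in DMSO), 0.27 for Stat2 (NaJa-G over NaJa-F in DMSO), -0.16 for Usp18 (NaJa-F over NaJa-D in DMSO) and -0.20 for Xaf1 (NaJa-F over NaJa-D in DMSO). It turned with day 1 alone to 0.24 for Irf7 (NaJa-F over NaJa-D in DMSO), -0.079 for Irf9 (NaJa-G over NaJa-D in DMSO), -0.055 for Irf9 (NaJa-G over NaJa-F in DMSO), 0.66 for Oasl2 (NaJa-F over NaJa-D in DMSO), 0.78 for Oasl2 (NaJa-G over NaJa-D in DMSO) and 0.13 for Oasl2 (NaJa-G over NaJa-F in DMSO). It turned with edgeR quasi-likelihood to 0.052 for Xaf1 (time in NaJa-F). Leaving out 1 library, such values that crossed 0 spanned -0.038 to 0.32 for Gbp2 (time in NaJa-F), -0.061 to 0.10 for Ifngr1 (response between days in NaJa-D), -0.10 to 0.056 for Irf1 (response of NaJa-G minus NaJa-D, day 1), -0.059 to 0.33 for Irf1 (response of NaJa-G minus NaJa-D, day 5), -0.0019 to 0.21 for Irf7 (time in NaJa-F), -0.35 to 0.16 for Irf7 (response of NaJa-G minus NaJa-D, day 1), -0.24 to 0.025 for Irf9 (response of NaJa-F minus NaJa-D, day 1), -0.18 to 0.14 for Irf9 (response of NaJa-F minus NaJa-D, day 5), -0.10 to 0.17 for Irf9 (response of NaJa-G minus NaJa-D, day 1), -0.30 to 0.011 for Oasl2 (NaJa-F over NaJa-D in DMSO), -0.13 to 0.19 for Oasl2 (response of NaJa-G minus NaJa-F, day 1), -0.31 to 0.17 for Stat2 (response of NaJa-G minus NaJa-D, day 1), -0.080 to 0.10 for Usp18 (time in NaJa-F), -0.077 to 0.60 for Usp18 (response between days in NaJa-G), -0.29 to 0.26 for Xaf1 (time in NaJa-F) and -0.073 to 0.48 for Xaf1 (response of NaJa-F minus NaJa-D, day 5). Scaling by library size shifted the all-gene median by 0.12 where NaJa-F or NaJa-G was set against NaJa-D, by 0.18 over time in NaJa-D and by -0.13 for the day 1 response of NaJa-G minus NaJa-D.

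The replicate number was also tried as a block. Deviations of same-numbered libraries from their group means correlated at -0.16 to 0.21 over 16 pairs, and 3 exceeded 0.1. The means come from 2 or 3 libraries each, so pairing of libraries by number was neither shown nor excluded. With the replicate block, 7, 7, 7, 6, 8 and 8 genes were called in the 6 encorafenib comparisons, as without it, and no call of any of the 9 genes changed. RLE scaling moved no count by over 1.5 times. Low counts in controls limited Gbp2, Xaf1, Irf7 and Usp18 in NaJa-G and Oasl2 and Xaf1 in NaJa-D.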
